A study of Mus musculus with 4 samples.

Results

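The cytochrome P450 genes were followed in the open chromatin of mouse lung tumours. Members were the protein-coding autosomal genes of mm10 whose symbol is Cyp followed by a number, a letter and a number, and Cyp51, with Cyp2f2 left out. They were 92 of 20661 protein-coding autosomal genes. A region of open chromatin belonged to a member where it touched the gene body or came no further than 10 kb from it. There were 96 such regions of 61972 in the data, and 5 of the 96 counted for 2 members each.

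Accessible DNA was mapped with a transposase that cuts and tags open chromatin (ATAC-seq), in 4 libraries of snap-frozen tumour from 4 C57B6J mice aged 55 weeks. The KrasLA1;Dicer1S2D group (genotype KrasLA1/+;Dicer1S2D/+) had 2 libraries and the KrasLA1 group (genotype KrasLA1/+) had 2, and KrasLA1, an oncogene that stays silent until a chance recombination switches it on, was present in every mouse. Dicer1S2D is an altered allele of the microRNA-processing enzyme Dicer1. Replicate 1 is the female and replicate 2 the male of each group, so sex cannot be told apart from replicate number, and wherever 2 values of a group are given, the female comes before the male. The sources used here do not say how many tumours a sample held. The samples were pieces of tissue, so fewer cells of a type and less open chromatin per cell cannot be told apart.

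Each value below is the position of a peak, called in each library on its own, so a region is called or not called in a library, and its only size is the number of base pairs called. Read depth is unknown. The libraries held 50282 and 34767 peaks in KrasLA1;Dicer1S2D, against 41621 and 44654 in KrasLA1, so the KrasLA1;Dicer1S2D male had the fewest. Calls at marker loci were set beside the tissue label. The epithelial loci Epcam, Krt8, Krt18 and Cdh1 (4 of 4) and the lung loci Nkx2-1, Sftpc and Napsa (3 of 3) had a region within 2 kb of a gene end in all 4 libraries. So did 54.5% of all protein-coding autosomal genes. Of the liver loci, Apoa1 also had such a region in all 4 libraries, Alb only in the KrasLA1;Dicer1S2D female and Ttr only in the KrasLA1 female. These calls alone therefore cannot establish the tissue.

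Cytochromes P450 are haem enzymes that insert oxygen into their substrates, with electrons supplied by the reductase Por in the endoplasmic reticulum or by ferredoxin in mitochondria. Some members clear drugs, toxins and combustion products and are most abundant in liver, gut and the airway epithelium. Others make and remove signalling lipids, steroid hormones, bile acids, vitamin D and retinoic acid. In lung the family is best known for the activation of inhaled carcinogens such as polycyclic aromatic hydrocarbons. Many members lie in arrays of near copies made by gene duplication.

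Of the 92 members, 48 had an open region in at least 1 library, which is 52.2%, beside 76.9% of all protein-coding autosomal genes, and 44 had none. A region called in all 4 libraries was found at 32 members (34.8%), beside 67.0% of all genes. A region within 2 kb of a gene end in all 4 libraries was found at 18 members (19.6%), beside 54.5% of all genes. The median gene length was 21.8 kb in members with a region and 22.9 kb in members without one, against 22.0 kb and 5.02 kb in all genes with and without one. Members with a region had a median of 2 regions each, beside 3 for all genes with a region.

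Promoter sequences are shown here for the members on which the account turns, because the calls at promoters can be set beside their letters. RefSeq promoter windows of GRCm38.p6, from 250 bp before to 50 bp after an annotated start, were available for 72 members, 82 windows in all. A peak in all 4 libraries overlapped 12 of the 82 windows (14.6%), beside 47.5% of the windows of all protein-coding genes, and no peak overlapped 63 (76.8%, beside 44.5%). The 250 bases before the start are printed on the strand of the gene for 8 members, in lower case. Capitals mark GCGTG, the core of the element bound by the aryl hydrocarbon receptor, and the nuclear receptor core letters TGACCT or, at Cyp4v3, TGAACT. Each was searched on both strands, so that the capitals of Cyp1b1 read CACGC and the first capitals of Cyp3a57 read AGGTCA. The first group had a peak in all 4 libraries at the window: Cyp51 at chr5:4104698-4104947 (minus strand), Cyp2s1 at chr7:25816526-25816775 (minus strand), Cyp4v3 at chr8:45333164-45333413 (minus strand) and Cyp3a13 at chr5:137921620-137921869 (minus strand).

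Cyp51: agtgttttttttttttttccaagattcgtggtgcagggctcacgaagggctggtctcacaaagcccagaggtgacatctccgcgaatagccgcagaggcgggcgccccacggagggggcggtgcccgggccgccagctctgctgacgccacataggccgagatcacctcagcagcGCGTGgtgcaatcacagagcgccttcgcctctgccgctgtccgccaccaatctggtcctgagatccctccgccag

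Cyp2s1: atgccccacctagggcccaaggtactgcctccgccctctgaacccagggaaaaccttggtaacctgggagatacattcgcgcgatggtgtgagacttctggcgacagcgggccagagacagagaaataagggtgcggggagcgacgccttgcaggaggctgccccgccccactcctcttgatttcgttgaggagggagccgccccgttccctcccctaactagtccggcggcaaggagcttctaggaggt

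Cyp4v3: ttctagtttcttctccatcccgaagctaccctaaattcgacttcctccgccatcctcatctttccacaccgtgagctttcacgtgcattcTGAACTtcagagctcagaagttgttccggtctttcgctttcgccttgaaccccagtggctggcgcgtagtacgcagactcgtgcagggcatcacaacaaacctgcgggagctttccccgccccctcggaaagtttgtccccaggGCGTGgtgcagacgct

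Cyp3a13: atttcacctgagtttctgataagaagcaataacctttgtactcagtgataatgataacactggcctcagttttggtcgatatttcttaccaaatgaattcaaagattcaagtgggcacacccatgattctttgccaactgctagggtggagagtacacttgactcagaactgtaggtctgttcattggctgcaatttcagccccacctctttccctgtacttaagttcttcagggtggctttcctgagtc

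The first 3 of these hold 20, 15 and 17 CpG dinucleotides in the printed bases, while Cyp3a13 holds 1 and was still called in every library. The second group had a peak at the window in both female tumours and neither male tumour: Cyp1b1 at chr17:79715062-79715311 (minus strand), Cyp3a57 at chr5:145345019-145345268 (plus strand) and Cyp4f40 at chr17:32658777-32659026 (plus strand).

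Cyp1b1: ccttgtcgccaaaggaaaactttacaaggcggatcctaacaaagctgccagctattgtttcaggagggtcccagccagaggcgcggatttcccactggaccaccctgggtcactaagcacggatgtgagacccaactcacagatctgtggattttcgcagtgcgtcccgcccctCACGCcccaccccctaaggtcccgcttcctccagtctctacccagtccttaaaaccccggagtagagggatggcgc

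Cyp3a57: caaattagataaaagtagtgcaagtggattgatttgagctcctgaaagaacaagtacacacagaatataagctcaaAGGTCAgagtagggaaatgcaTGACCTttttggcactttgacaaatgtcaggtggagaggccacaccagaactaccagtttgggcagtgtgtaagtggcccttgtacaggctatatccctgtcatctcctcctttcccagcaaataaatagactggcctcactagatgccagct

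Cyp4f40: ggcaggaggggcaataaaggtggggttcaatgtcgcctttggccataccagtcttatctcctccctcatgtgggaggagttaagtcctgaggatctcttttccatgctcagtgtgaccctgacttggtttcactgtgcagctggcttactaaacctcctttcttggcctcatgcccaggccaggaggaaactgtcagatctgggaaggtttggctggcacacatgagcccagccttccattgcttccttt

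Cyp1b1 holds 12 CpG dinucleotides, Cyp3a57 none and Cyp4f40 1. Cyp3a57 holds 2 copies of TGACCT, of which 1 is read on the other strand as AGGTCA. The last sequence is that of Cyp1a1 at chr9:57697363-57697612 (plus strand), the member best known as a target of the aryl hydrocarbon receptor, whose window holds GCGTG and had no peak in any library.

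Cyp1a1: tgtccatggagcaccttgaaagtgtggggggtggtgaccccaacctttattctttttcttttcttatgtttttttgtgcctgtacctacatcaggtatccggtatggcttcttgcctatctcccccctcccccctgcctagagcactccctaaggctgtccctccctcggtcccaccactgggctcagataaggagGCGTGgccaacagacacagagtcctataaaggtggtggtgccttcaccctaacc

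The median ratio of observed to expected CpG was 0.504 in the 12 windows with a peak in all 4 libraries, 0.215 in the 7 with a peak in 1 to 3 libraries and 0.138 in the 63 with none. Windows of all protein-coding genes followed the same order at higher ratios, with medians of 0.801, 0.549 and 0.234. The range within the 12 was wide, from 0.0639 at Cyp3a13 and 0.0879 at Cyp4f16 to 0.894 at Cyp51 and 0.972 at Cyp46a1. GCGTG was present in 6 of the 12, 2 of the 7 and 9 of the 63 windows (50.0%, 28.6% and 14.3%), beside 56.0%, 39.2% and 21.2% of the windows of all protein-coding genes in the same classes. Over all classes it was present in 20.7% of members' windows and 39.2% of those of all protein-coding genes. TGACCT was in 25.6% of members' windows (all genes 14.7%) and TGAACT in 15.9% (all genes 12.3%). A match describes letters in a window and does not show that a factor binds there.

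**Figure D1:**
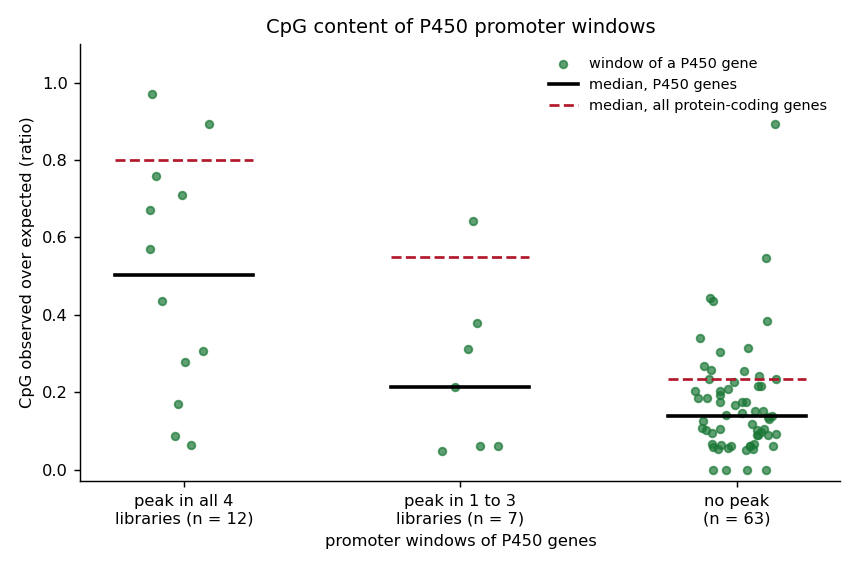
Ratio of observed to expected CpG (y axis) in the 82 promoter windows of P450 genes, by the number of libraries with a peak at the window. Each point is a window, the black line is the median of the P450 windows and the dashed red line that of all protein-coding genes; the P450 medians were 0.504, 0.215 and 0.138 from left to right, each below the median of all genes.

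Some windows are near copies of each other, and the sources used here do not say how reads matching several places were treated, so calls at these genes are uncertain. The closest other member shared over 90% of the bases in 11 of the 63 windows without a peak, in 1 of the 7 with a peak in 1 to 3 libraries, and in none of the 12 with a peak in all 4. The closest pairs were Cyp2b9 and Cyp2b13 (99.3% identity), Cyp2a4 and Cyp2a5 (98.0%) and Cyp3a25 and Cyp3a59 (96.3%). The Cyp3a57 window shared 91.7% with that of Cyp3a59.

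The number of open regions at P450 genes did not separate the genotypes. Regions were called at 80 and 56 sites in KrasLA1;Dicer1S2D, against 73 and 64 in KrasLA1, so the KrasLA1;Dicer1S2D tumours held both the highest and the lowest count. The means were 68.0 ± 17.0 regions in KrasLA1;Dicer1S2D and 68.5 ± 6.36 in KrasLA1 (SD, n = 2 each), a difference of -0.5 regions (exact two-sided permutation test, p = 1). Members with at least 1 called region numbered 42 and 39 in KrasLA1;Dicer1S2D, against 44 and 38 in KrasLA1. The means were 40.5 ± 2.12 and 41.0 ± 4.24 members in KrasLA1;Dicer1S2D and KrasLA1 (SD, n = 2 each), a difference of -0.5 members (exact two-sided permutation test, p = 1). Members with a region at a gene end numbered 29 and 23 in KrasLA1;Dicer1S2D, against 29 and 23 in KrasLA1 (exact two-sided permutation test, p = 1). The adjusted p over these 3 exact tests was 1, and 2 libraries against 2 cannot go below p = 0.333. Within the females the genotypes differed by 7 regions and within the males by -8 (KrasLA1;Dicer1S2D minus KrasLA1), a pair of opposite signs. All peaks of the libraries moved the same way, and differed by 8661 in the females and -9887 in the males. P450 regions made up 0.167% and 0.168% of the autosomal regions called in KrasLA1;Dicer1S2D, against 0.182% and 0.147% in KrasLA1. Leaving out a library turned the sign of the difference in regions, to 11.5 without the KrasLA1;Dicer1S2D male and 4 without the KrasLA1 female, and that of the difference in members, to 1 and 2.5.

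**Figure D2:**
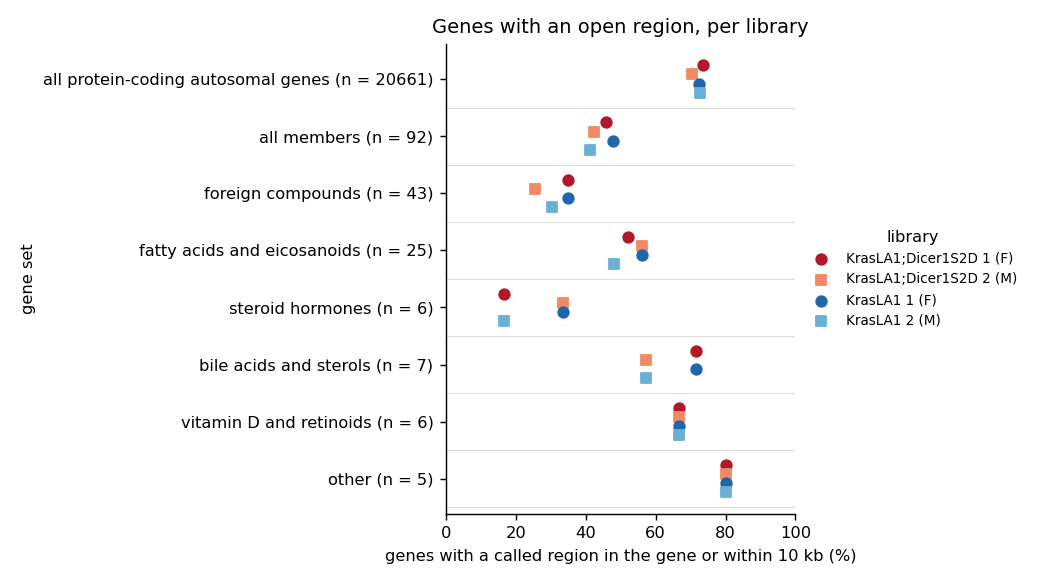
Share of genes with a called region in the gene or within 10 kb (x axis, percent) in each library, for all protein-coding autosomal genes, for all members and for members by the substrate class of their subfamily. Circles are females and squares males; all members lie between 41.3% and 47.8% and all genes between 70.4% and 73.5%.

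Members were then ordered by what the enzymes act on, with each subfamily placed as a whole by its textbook substrate. A single member of a class may act on something else. The foreign compound class had a region at 16 of 43 members, and the class for fatty acids and eicosanoids at 16 of 25. The steroid hormone class had a region at 3 of 6, and the bile acid and sterol class at 5 of 7. The vitamin D and retinoid class had a region at 4 of 6, and the remaining members at 4 of 5. Of all protein-coding autosomal genes, 76.9% had a region. Members of a class can share an array, so these counts are a description and differences between classes were not tested. In the foreign compound class 15 and 11 members had a called region in KrasLA1;Dicer1S2D, against 15 and 13 in KrasLA1. In the fatty acid class the counts were 13 and 14 members in KrasLA1;Dicer1S2D, against 14 and 12 in KrasLA1. In the bile acid and sterol class they were 5 and 4 members, against 5 and 4 in KrasLA1, and in the vitamin D and retinoid class 4 in every library. In each class the ranges of the genotypes overlapped.

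**Figure D3:**
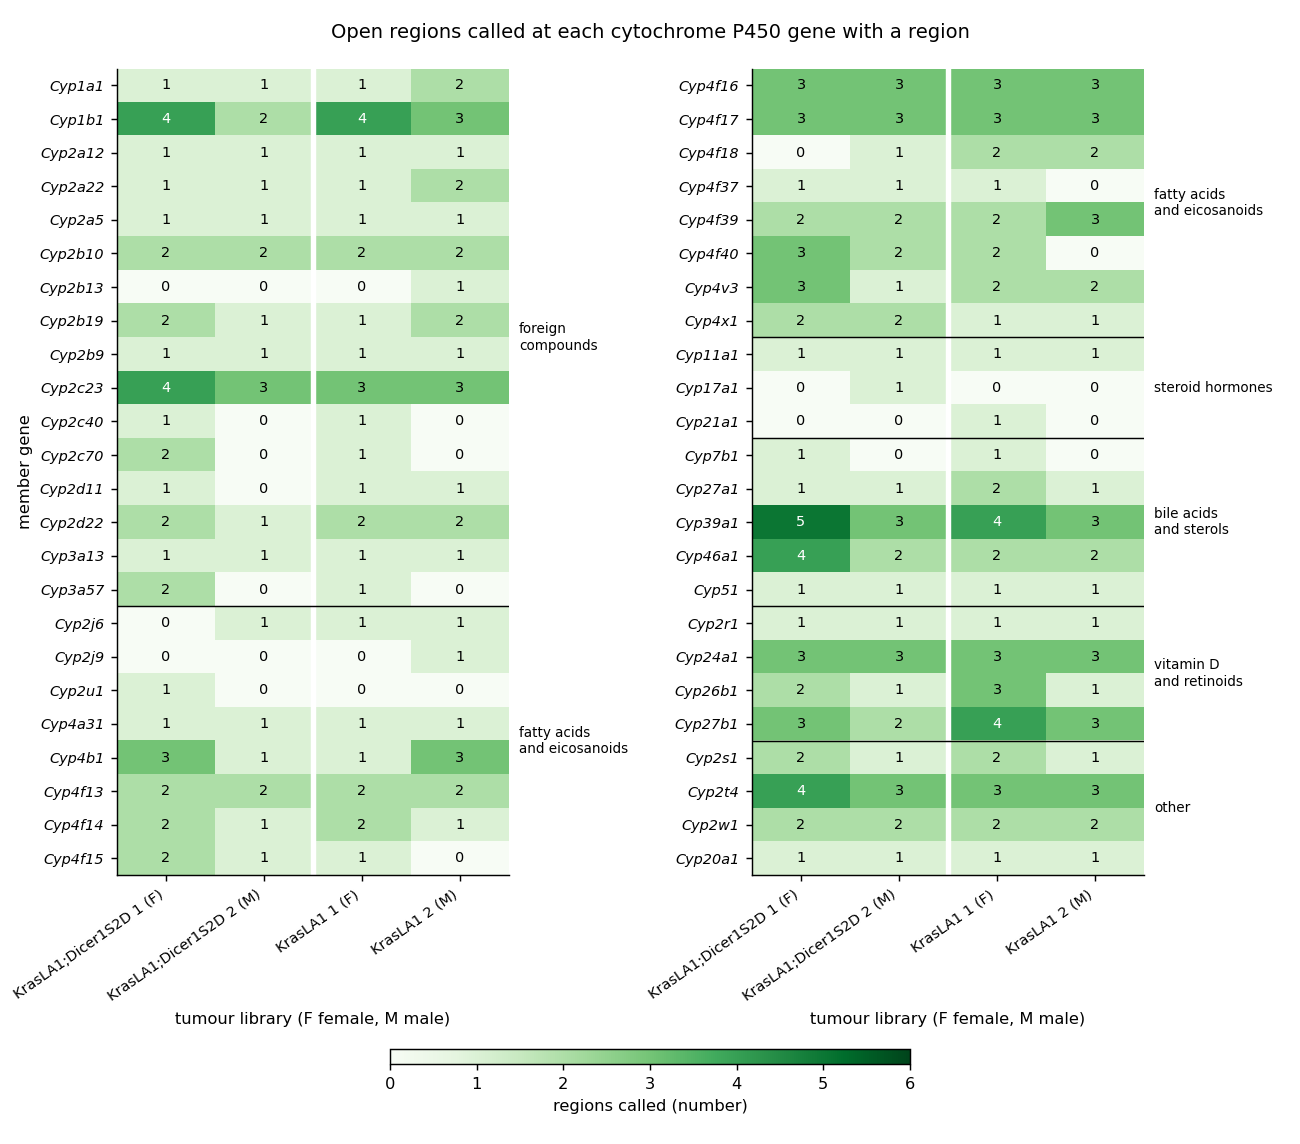
Number of called open regions (cell value and colour) in or within 10 kb of each of the 48 members with a region, by library, with the 2 KrasLA1;Dicer1S2D libraries left of the 2 KrasLA1 libraries. Members are grouped by substrate class; Cyp39a1 reaches 5 regions in a library, and Cyp4f40 ranges from 3 in the KrasLA1;Dicer1S2D female to 0 in the KrasLA1 male.

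In the foreign compound class, Cyp1b1, which activates polycyclic hydrocarbons and oestrogens, had the most regions together with Cyp2c23, 4 each. Cyp1b1 had 4 and 2 called regions in KrasLA1;Dicer1S2D, against 4 and 3 in KrasLA1. Its region over the start, at the promoter printed above, was called over 444 and 0 bp in KrasLA1;Dicer1S2D and over 236 and 0 bp in KrasLA1. The neighbouring region that begins 367 bp upstream was called in every library, over 674 and 621 bp in KrasLA1;Dicer1S2D and 632 and 836 bp in KrasLA1. A further region inside the gene was absent only from the KrasLA1;Dicer1S2D male. The region over the start was thus called in both females and neither male, beside a flank called in all 4 tumours.

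Cyp1a1, which is induced by the same receptor, had 1 and 1 called regions in KrasLA1;Dicer1S2D, against 1 and 2 in KrasLA1. The region shared by all libraries lay over the promoter of its neighbour Edc3, 4464 bp beyond Cyp1a1. The only other region, at -897 bp from the annotated start, was called in the KrasLA1 male alone, over 240 bp. Cyp1a2 and Cyp2e1, which act on aromatic amines and on ethanol in liver, had no region in any library.

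In the Cyp2 array on chromosome 7, from Cyp2s1 to Cyp2t4, 9 of 12 members had a region, beside 76.9% of all protein-coding autosomal genes. Cyp2b10, the standard target of the receptor Nr1i3 in liver, had 2 called regions in every library, both inside the gene. Its wider region, 4117 bp from the start, covered 951 and 1085 bp in KrasLA1;Dicer1S2D, against 1001 and 1232 bp in KrasLA1. Cyp2b19 had 2 and 1 called regions in KrasLA1;Dicer1S2D, against 1 and 2 in KrasLA1, with the shared region 319 bp past the gene. Cyp2a12 had a region 1753 bp upstream in every library, over 432 and 535 bp in KrasLA1;Dicer1S2D and 660 and 525 bp in KrasLA1. Cyp2a5, which hydroxylates coumarin and nicotine, had a different region in each sex, 286 bp past the gene in both females and 6567 bp past it in both males. Cyp2s1, an extrahepatic enzyme of epithelia, was called at its promoter over 557 and 564 bp in KrasLA1;Dicer1S2D, against 464 and 635 bp in KrasLA1.

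Cyp3a13, the Cyp3a gene that lies apart from the main array, was called at its promoter in every library, over 868 and 985 bp in KrasLA1;Dicer1S2D and 930 and 1028 bp in KrasLA1. In the array itself only Cyp3a57 had regions, 2 and 0 in KrasLA1;Dicer1S2D and 1 and 0 in KrasLA1. Cyp2c23 had 4 and 3 called regions in KrasLA1;Dicer1S2D, against 3 and 3 in KrasLA1, of which 3 were common to all libraries. Cyp2c70 had 2 and 0 called regions in KrasLA1;Dicer1S2D, against 1 and 0 in KrasLA1. Both Cyp3a57 and Cyp2c70 were thus called in female tumours only.

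Among the enzymes of fatty acids and eicosanoids, all 9 Cyp4f members, which hydroxylate the ends of fatty acids and of leukotriene chains, had a region. The share over all protein-coding autosomal genes was 76.9%. Cyp4f16 and Cyp4f17 each had 3 called regions in every library and Cyp4f13 had 2. The Cyp4f16 promoter was called over 656 and 597 bp in KrasLA1;Dicer1S2D, against 631 and 610 bp in KrasLA1, and that of Cyp4f13 over 691 and 515 bp, against 647 and 830 bp in KrasLA1. Cyp4f18, which degrades leukotrienes in mouse neutrophils and lies alone on chromosome 8, had 0 and 1 called regions in KrasLA1;Dicer1S2D, against 2 and 2 in KrasLA1. Of the 3 Cyp4f18 regions, 2 were called in a single library each, and none was called in the KrasLA1 pair alone.

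Cyp4b1, a lung enzyme that activates inhaled furans, had 3 and 1 called regions in KrasLA1;Dicer1S2D, against 1 and 3 in KrasLA1. The region 1969 bp inside the start was called in all 4 libraries, over 296 and 245 bp in KrasLA1;Dicer1S2D and 340 and 553 bp in KrasLA1. The other 2 were shared by the KrasLA1;Dicer1S2D female and the KrasLA1 male, which are the libraries with the most peaks. Cyp4v3 was called at its promoter over 955 and 910 bp in KrasLA1;Dicer1S2D, against 1131 and 1071 bp in KrasLA1, and 2 further regions inside it were called in some libraries. Cyp2j6, an arachidonic acid epoxygenase, was called at its promoter over 0 and 259 bp in KrasLA1;Dicer1S2D, against 290 and 606 bp in KrasLA1. Of the 5 Cyp4a members, targets of Ppara in liver, only Cyp4a31 had a region, called in every library.

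Of the steroid hormone enzymes, Cyp11a1, which makes pregnenolone from cholesterol, was called at its promoter over 803 and 599 bp in KrasLA1;Dicer1S2D, against 776 and 681 bp in KrasLA1. Cyp17a1 had a region in the KrasLA1;Dicer1S2D male alone and Cyp21a1 in the KrasLA1 female alone. Cyp11b1, Cyp11b2 and the aromatase gene Cyp19a1 had none.

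Among the bile acid and sterol enzymes, Cyp51, the lanosterol demethylase of cholesterol synthesis, was called at its promoter over 766 and 882 bp in KrasLA1;Dicer1S2D, against 1105 and 982 bp in KrasLA1. Cyp27a1, a mitochondrial sterol hydroxylase, was called at its promoter over 674 and 853 bp in KrasLA1;Dicer1S2D, against 756 and 823 bp in KrasLA1. The oxysterol hydroxylase Cyp39a1 had 6 regions, the most of any member, with 5 and 3 called in KrasLA1;Dicer1S2D, against 4 and 3 in KrasLA1. Its region at a gene end that was called in every library also overlapped the neighbour Slc25a27. Cyp46a1, a cholesterol hydroxylase known from neurons, had 4 and 2 called regions in KrasLA1;Dicer1S2D, against 2 and 2 in KrasLA1. Of the 2 Cyp46a1 regions called in every library, 1 was its own promoter and the other the promoter of Eml1. Cyp7b1, an oxysterol hydroxylase of the alternative bile acid pathway, was called over 207 and 0 bp in KrasLA1;Dicer1S2D, against 957 and 0 bp in KrasLA1, and so in females only. The bile acid genes Cyp7a1 and Cyp8b1, which belong to liver, had no region.

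Among the vitamin D enzymes, Cyp2r1, which performs the first hydroxylation, was called at its promoter over 743 and 685 bp in KrasLA1;Dicer1S2D, against 730 and 1200 bp in KrasLA1. Cyp27b1, which makes the active hormone, had 3 and 2 called regions in KrasLA1;Dicer1S2D, against 4 and 3 in KrasLA1. Its 2 regions of all 4 libraries were the promoters of the neighbours Mettl1 and Cdk4, and the region inside Cyp27b1 was called over 720 and 0 bp in KrasLA1;Dicer1S2D, against 895 and 1346 bp in KrasLA1. Cyp24a1, which inactivates the hormone, had 3 called regions in every library, none of them touching the gene itself. Those 29 and 5533 bp away overlapped the neighbour Pfdn4, and the other lay 5900 bp away. The Cyp24a1 region 29 bp from a gene end covered 290 and 177 bp in KrasLA1;Dicer1S2D, against 574 and 357 bp in KrasLA1. The test of widths given further on did not call it. Of the retinoic acid hydroxylases, Cyp26b1 had 2 and 1 called regions in KrasLA1;Dicer1S2D, against 3 and 1 in KrasLA1, and Cyp26a1 and Cyp26c1 had none.

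Of the remaining members, Cyp20a1, an enzyme with no established substrate, was called at its promoter over 983 and 857 bp in KrasLA1;Dicer1S2D, against 848 and 835 bp in KrasLA1. Cyp2t4 had 4 and 3 called regions in KrasLA1;Dicer1S2D, against 3 and 3 in KrasLA1, of which 1 was the promoter of Egln2. Cyp2w1 had 2 in every library, of which 1 was the promoter of Cox19. Of the 96 regions, 6 lay over the promoter of a protein-coding gene that is no member, and 1 further region, near Cyp2b13, over that of the long non-coding RNA Gm51474. Promoter windows were available for 16456 protein-coding genes, fewer than the 20661 counted here, so more regions may lie over such promoters.

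The members without any region were given by subfamily. They were 12 of 15 Cyp2c genes (Cyp2c29, Cyp2c37, Cyp2c38, Cyp2c39, Cyp2c50, Cyp2c54, Cyp2c55, Cyp2c65, Cyp2c66, Cyp2c67, Cyp2c68 and Cyp2c69), 6 of 8 Cyp2d genes (Cyp2d9, Cyp2d10, Cyp2d12, Cyp2d26, Cyp2d34 and Cyp2d40), 5 of 7 Cyp2j genes (Cyp2j5, Cyp2j8, Cyp2j11, Cyp2j12 and Cyp2j13), 5 of 7 Cyp3a genes (Cyp3a11, Cyp3a16, Cyp3a25, Cyp3a44 and Cyp3a59) and 4 of 5 Cyp4a genes (Cyp4a10, Cyp4a14, Cyp4a29 and Cyp4a32). The other 12 were Cyp1a2, Cyp2a4, Cyp2b23, Cyp2e1, Cyp2g1, Cyp7a1, Cyp8b1, Cyp11b1, Cyp11b2, Cyp19a1, Cyp26a1 and Cyp26c1.

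The arrays differed widely in how much open chromatin they held between their outer gene ends. The array of 14 Cyp2c genes on chromosome 19, 1.18 Mb long, held 2 regions, or 1.69 per Mb, against 24.7 per Mb over all autosomes. Both were called in the females, giving 2 and 0 in KrasLA1;Dicer1S2D and 2 and 0 in KrasLA1. The 6 Cyp3a genes on chromosome 5 held 2.60 regions per Mb, the 7 Cyp2j genes on chromosome 4 held 3.22, the 8 Cyp2d genes on chromosome 15 held 4.72 and the array from Cyp4x1 to Cyp4b1 on chromosome 4 held 5.54. The Cyp2 array on chromosome 7, from Cyp2s1 to Cyp2t4, held 22.1 regions per Mb, or 30 regions. Of these, 19 and 20 were called in KrasLA1;Dicer1S2D, against 17 and 24 in KrasLA1. The Cyp2 span also holds 6 other protein-coding genes, and many of its 30 regions belonged to no member. The 8 Cyp4f genes on chromosome 17 held 46.5 per Mb, or 23 regions, of which 20 and 16 were called in KrasLA1;Dicer1S2D, against 18 and 14 in KrasLA1. The Cyp4f span also holds 4 other protein-coding genes. The span from Cyp1a2 to Cyp11a1 on chromosome 9, with 3 members and 5 other protein-coding genes, held 68.6 per Mb, or 24 regions, of which 17 and 12 were called in KrasLA1;Dicer1S2D, against 15 and 17 in KrasLA1. Of these 24 regions, few belonged to the members, since Cyp1a2 had none, Cyp1a1 2 and Cyp11a1 1. The order of the arrays is a description, since genes of an array are near copies and share their surroundings.

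**Figure D4:**
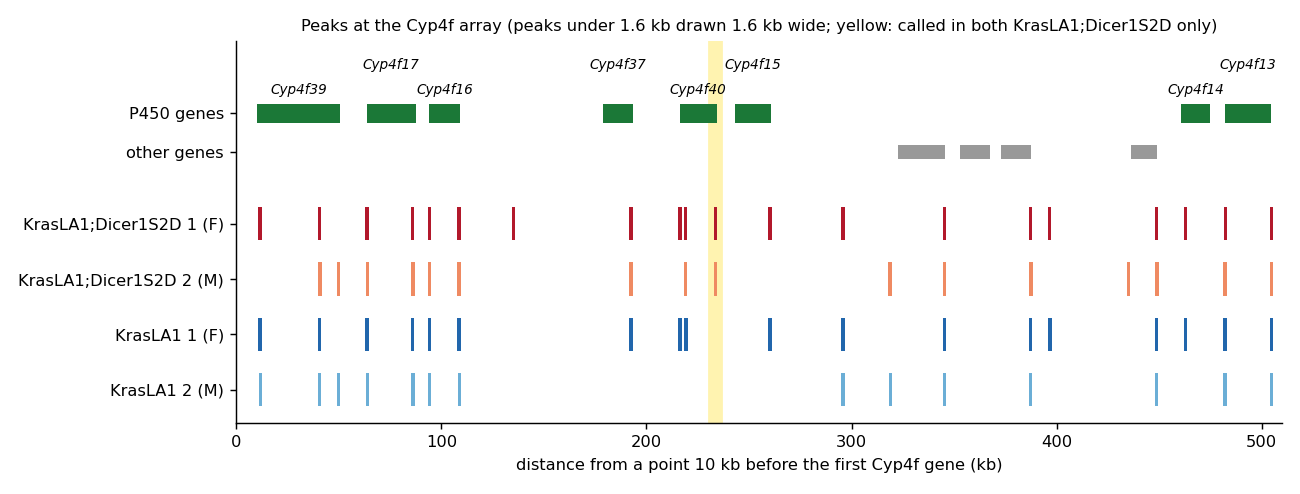
Peaks along the Cyp4f array (x axis, distance in kb from a point 10 kb before the first gene), with P450 genes in green, other protein-coding genes in grey and a row of peaks for each library. The yellow band marks the region at the end of Cyp4f40 that was gained, with peaks in the 2 KrasLA1;Dicer1S2D libraries alone; the KrasLA1 male has no peak from Cyp4f37 to Cyp4f15.

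The question of the design was which open chromatin goes with Dicer1S2D. A region was counted as gained if both KrasLA1;Dicer1S2D libraries had it while the KrasLA1 libraries did not, and as lost if the KrasLA1 libraries alone had it. At the P450 genes 2 regions were gained, 2.08% of the 96, beside 0.596% of all autosomal regions, and 0 were lost, beside 1.42%. The gained regions counted for 3 of the 48 members with a region (6.25%), beside 1.78% of all genes with a region, and the lost regions for 0, beside 4.86%. Calls in 2 libraries against 2 allow no test that reaches 0.05, and the counts rest on single libraries. Gained and lost regions numbered 3 and 4 without the KrasLA1;Dicer1S2D female, 10 and 2 without the KrasLA1;Dicer1S2D male, 5 and 6 without the KrasLA1 female and 2 and 5 without the KrasLA1 male. With a library left out fewer calls need to agree. The shares of all autosomal regions gained or lost were not counted at these settings, so these numbers cannot be read as many or few.

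The first gained region, chr17:32676275-32676624, lay inside Cyp4f40, 295 bp from its downstream end, and within 10 kb of Cyp4f15. It was called over 345 and 283 bp in KrasLA1;Dicer1S2D, against 0 and 0 bp in KrasLA1. Cyp4f40 as a whole had 3 and 2 called regions in KrasLA1;Dicer1S2D, against 2 and 0 in KrasLA1, the widest range over the libraries of any member. Cyp4f15 had 2 and 1 called regions in KrasLA1;Dicer1S2D, against 1 and 0 in KrasLA1. The KrasLA1 male thus lacked every region of both genes, also those called in the KrasLA1 female.

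The second gained region, chr4:115101840-115102065, lay 4258 bp outside Cyp4x1, a fatty acid P450 of brain, and was called over 216 and 199 bp in KrasLA1;Dicer1S2D, against 0 and 0 bp in KrasLA1. The other Cyp4x1 region was called in all 4 libraries, over 1253 and 1229 bp in KrasLA1;Dicer1S2D and 1576 and 1646 bp in KrasLA1. Both gained regions were narrower than the median of 362 bp for P450 regions called in 2 libraries. The Cyp4f40 region was gained also among peaks of at least 200 bp and with equal numbers of the widest peaks in each library, while the Cyp4x1 region was not. Among the widest 75% of peaks neither was gained, and 1 region at Cyp4f16 was counted in their place.

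More P450 regions were split by sex, which is also replicate number, than by genotype, and the number depended on how peaks were chosen. Of the 96 regions, 13 (13.5%) were called in both females and neither male, beside 6.61% of all autosomal regions, and 2 (2.08%) in both males and neither female, beside 2.31%. The 13 lay at 13 of the 48 members with a region (27.1%), beside 14.9% of all genes with a region, and the 2 at 2 members (4.17%), beside 7.19%. The 13 members were Cyp1b1, Cyp2a5, Cyp2c40, Cyp2c70, Cyp2s1, Cyp3a57, Cyp4f14, Cyp4f15, Cyp4f40, Cyp4v3, Cyp7b1, Cyp26b1 and Cyp39a1, and the 2 were Cyp2a5 and Cyp4f39. With equal numbers of the widest peaks in each library, 4 P450 regions (5%) were called in both females only, beside 4.37% of all regions, and 3 (3.75%) in both males only, beside 4.60%. Without the KrasLA1 female, 21 regions (23.1%, beside 19.6% of all regions) were called in the remaining female and neither male, and without the KrasLA1;Dicer1S2D male, 8 (8.42%, beside 11.4%) were called in the remaining male and neither female. With equal numbers of peaks the share of P450 regions was close to that of all regions in both directions. Both males had to lack a region for it to count for the females. The KrasLA1;Dicer1S2D male had the fewest peaks, 34767, while the KrasLA1 male had 44654, more than the 41621 of the KrasLA1 female. Taking the widest peaks also changes which widths are counted, and the part of peak number in the count was not tested.

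**Figure D5:**
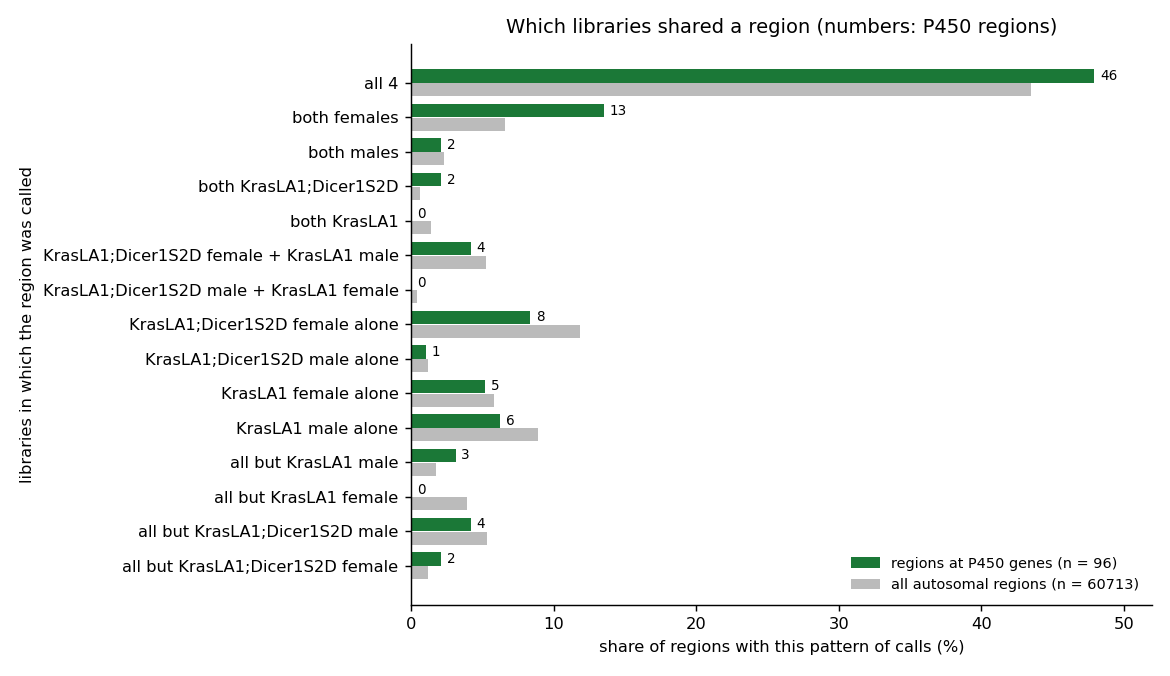
Share of regions (x axis, percent) called in each combination of libraries, for the 96 regions at P450 genes in green and all 60713 autosomal regions in grey; numbers beside the bars count P450 regions. Called in all 4 libraries were 46, in both females only 13, in both KrasLA1;Dicer1S2D tumours only 2 and in both KrasLA1 tumours only 0.

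Of the 96 regions, 46 (47.9%) were called in all 4 libraries, beside 43.5% of all autosomal regions, 9 in 3 libraries, 21 in 2 and 20 in 1. Regions called in more libraries were wider. The medians were 217.5 bp for 1 library, 362 bp for 2, 544 bp for 3 and 664 bp for 4. For all autosomal regions they were 253, 373, 474 and 789.5 bp. These are widths of merged regions, which are at least as wide as the bases any library called in them. Some widening with the number of libraries is therefore built in by the merging. Promoter windows of members held 18 of the 96 regions, of which 12 were called in all 4 libraries. A further 28 lay within 2 kb of a gene end (11 in all 4), 22 elsewhere in a gene (9 in all 4) and 28 outside a member (14 in all 4).

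The width of the called peaks was compared at the regions shared by all 4 libraries. At the P450 regions the median width was 583 and 549.5 bp in KrasLA1;Dicer1S2D, against 631.5 and 602 bp in KrasLA1. At all autosomal regions of 4 libraries it was 610 and 562 bp in KrasLA1;Dicer1S2D, against 604 and 713 bp in KrasLA1. After centring each library on its own median, 0 of the 46 regions differed between genotypes with limma at an adjusted p of 0.05, with 1 at an unadjusted p under 0.05, beside 0% and 2.92% of 26402 regions. The 1 region was the Cyp2t4 promoter, called over 381 and 233 bp in KrasLA1;Dicer1S2D, against 584 and 555 bp in KrasLA1, a log2 difference of -0.77 ± 0.29 (SE) with a limma adjusted p of 0.999. The log2 difference was negative at 23 of the 46 regions and its median was 0.00, beside 0.04 for all regions. Without centring the median was -0.16 for the P450 regions and -0.12 for all regions, and 36 of the 46 were negative.

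Genes that work with the P450s were counted in the same way. Of all protein-coding autosomal genes 76.9% had a region, and of those 1.78% had a gained and 4.86% a lost region. The absence of gains or losses in a short list therefore says little. All 6 redox partners (Por, Cyb5a, Cyb5b, Cyb5r3, Fdx1 and Fdxr) had a region, with 24 and 20 regions called in KrasLA1;Dicer1S2D, against 19 and 31 in KrasLA1, and none of the 6 had a gained or lost region. All 9 regulators (Ahr, Arnt, Ahrr, Nr1i2, Nr1i3, Rxra, Ppara, Nr1h4 and Vdr) had a region, with 36 and 27 called in KrasLA1;Dicer1S2D, against 35 and 31 in KrasLA1. A lost region was found at 2 of the 9, beside 4.86% of all genes with a region: at Rxra, the partner of many nuclear receptors, and at Vdr, the vitamin D receptor. Of the marker loci, Cdh1 and Nkx2-1 also had 1 lost region each. Rxra had 11 and 6 called regions in KrasLA1;Dicer1S2D, against 13 and 9 in KrasLA1, and Vdr had 4 and 4, against 4 and 5 in KrasLA1. The 10 enzymes of later steps, such as the epoxide hydrolase Ephx1 and the glutathione transferase Gstp1, all had a region, with 31 and 25 called in KrasLA1;Dicer1S2D, against 24 and 31 in KrasLA1, and no gain or loss. Of the P450s under other symbols, the thromboxane synthase Tbxas1 had 16 and 9 called regions in KrasLA1;Dicer1S2D, against 10 and 15 in KrasLA1, and the prostacyclin synthase Ptgis had none.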

How the data were processed

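The deposited table holds 5 tracks of intervals in mm10, per the file headers: the authors' peaks of each library, called separately, and their merged regions. The deposited intervals give a position and a name, with no other value such as a count, height or p-value, and 0 tracks belonged to other samples. Per the submitters' processing notes, MACS3 3.0.0, BWA 0.7.12 and deepTools 3.5.1 were used, but the sources used here give no role, setting, threshold or shift of reads for the transposase. Peaks below the caller's threshold are missing from the lists, and a shallower library may have a shorter list. Per the labels' protocols, libraries came from 40-50 mg of frozen tumour and were made and analysed by a company.

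A library was counted as having a merged region if its peak overlapped it by at least 1 bp. Genes were taken from a RefSeq table of GRCm38.p6 (the assembly behind mm10), on 19 autosomes. It has no strand or exons, so an end of a gene may be its start or its finish. Coordinates are counted from 1. Promoter windows and strands came from RefSeq promoters of the same build.

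Means over libraries were set against each other by exact permutation tests, two-sided. Base pairs called per region were tested as log2 values, computed here from the deposited intervals, with limma 3.58.1 in R 4.3.3, centred on the median of each library, with Benjamini-Hochberg adjustment over 26402 regions. Replicates are separate mice, a female and a male in each group, so the spread within a group cannot be told apart from sex. The p-values are for the difference between the group means. Python 3.11.15, numpy 2.4.6, pandas 2.3.3, scipy 1.17.1, Biopython 1.88 (identity of promoter windows) and matplotlib 3.10.9 were used. The overlap of regions with peaks and genes and the test of widths were tried on simulated data. The simulated width changes were of a single size, larger than any difference estimated at the P450 regions.

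The members, classes and gene lists were chosen with earlier results of these data known. Members with a gained or lost region, with a region within 2 kb of a gene end in all 4 libraries, with the most regions or the most uneven calls (5 each), and 15 set members were named by rule. Other members, such as Cyp2b10 and Cyp4f18, were named after their values were seen. A count test was not run, because the intervals carry no counts.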

Additional observations from a re-analysis of the deposited data

Results flagged for a closer look

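The difference between genotypes had opposite signs in the sexes. At P450 genes the KrasLA1;Dicer1S2D female had 7 more regions than the KrasLA1 female (80 against 73), and the KrasLA1;Dicer1S2D male differed from the KrasLA1 male by -8 regions (56 against 64). Members with a region differed by -2 in the females (42 in KrasLA1;Dicer1S2D against 44 in KrasLA1) and by 1 in the males (39 in KrasLA1;Dicer1S2D against 38 in KrasLA1). With 1 library per genotype and sex, the difference between the sexes was not tested.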

How the results depend on the processing

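Values are KrasLA1;Dicer1S2D minus KrasLA1, or counts of regions. Leaving out each library in turn gave differences of -12.5 to 11.5 in regions, -3.5 to 2.5 in members with a region and -3 to 3 in members with a gene-end region, 2 to 10 gained regions, 2 to 6 lost regions, 16 to 21 regions in females only and 2 to 8 in males only; without the KrasLA1;Dicer1S2D male the differences were 11.5 regions and 1 member, and without the KrasLA1 female 4 regions and 2.5 members, so the sign of these 2 differences rests on single libraries. With 3 libraries a gained or lost region needs fewer calls to agree. The shares of all autosomal regions gained or lost under the alternatives were not counted. Gained regions numbered 1 in the gene body alone, with 2 kb around it, among the widest 75% of peaks, with equal numbers of widest peaks and among peaks of at least 200 bp. Lost regions numbered 1 among the widest 75% of peaks, among peaks of at least 200 bp and where 50% of a region had to be covered. The gene-end difference was -3.5 (widest 75%), -2 (equal numbers), -1.5 (at least 200 bp), -2 (50% covered), -0.5 (ends within 500 bp) and 1 (ends within 5 kb). Among the widest 75% of peaks members with a region differed by -6 and regions by -5, and with 50% covered regions differed by -4.5. Members with a region differed by 0 among peaks of at least 200 bp, and regions by 0 when 6 members with longer symbols (such as Cyp2ab1) were added. Regions in females only numbered 6 (widest 75%) and 4 (equal numbers), those in males only 1 (gene body, 2 kb, widest 75%), and those of all libraries 27 (gene body) and 30 (widest 75%). The cause of these changes was not tested. The longer symbols, the omission of regions at promoters of other genes, and the alternatives for the counts by sex, for regions of all libraries and for members without a region were chosen after seeing the data. With the replicate block the differences were -0.5 regions, -0.5 members and 0 at gene ends. With 2 pairs the exact tests could not have reached 0.05 in any case. The block called 0 widths (smallest limma adjusted p at P450 regions 0.872). At an unadjusted limma p under 0.05 it had 5 of 46 P450 regions, against 1 without the block. Over all 26402 regions the numbers were 1192 and 770. Deviations of the replicates 1 from their group means correlated at 0.120 across regions. With 2 pairs this does not show that the numbers pair the samples. Of 372 differences in called regions of named members under the alternatives, 129 were not equal to the first value, 44 lay at least the SD between replicates from it and 9 had the opposite sign. Read depth is unknown, so an uncalled region need not be closed.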
